A study of Mus musculus with 21 samples.

Results

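The data describe what ascorbic acid (vitamin C) did to transcript levels of differentiating mouse embryonic stem cells on average over 3 days of culture. The cells are CGR8, a mouse embryonic stem cell line, grown as embryoid bodies, the floating aggregates in which stem cells begin to form germ layers. Treated aggregates received 100 µM ascorbic acid in a medium described as 20% IMDM, and control aggregates the same medium without it. Both arms were collected at days 2, 3 and 5, with 3 biological replicates in each of the 6 groups. Aggregates formed in hanging drops of 500 cells in 25 µL and were moved to a shaker after day 2. The effect was defined as the mean of 9 differences, each an ascorbic acid array minus the control array of the same day and replicate number, with the days weighted equally. It used 18 of the 21 arrays of the series, because the stem cells of day 0 had no treated arm. All cultures came from 1 line, and the submitters went on only with those in which beating aggregates later became more frequent under ascorbic acid, so the effect is that of a selected set.

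Ascorbic acid is a reducing agent and a cofactor of iron-dependent dioxygenases. These enzymes include the prolyl hydroxylases that mark hypoxia-inducible factor (HIF) for destruction, the hydroxylases that stabilise collagen, the TET enzymes that oxidise methylated cytosine, and the JmjC histone demethylases. In embryoid bodies the vitamin is known for raising the yield of beating heart cells. The comparison asks which genes it shifted in the same direction on every day, before beating begins.

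Values are log2 array signals, on which a difference of 1 means a doubling. One probe set stood for each of 18193 genes. Arrays of a group correlated at 0.981 to 0.995. Over all genes, ascorbic acid and control arrays with the same number deviated together from their group means, with r of 0.178 to 0.679 in 9 of 9 pairs, against -0.509 to 0.088 for arrays with other numbers. Deviations within a group cancel out, so a positive r for the same number pulls the others down and the contrast is partly built in. The labels do not say whether arrays with the same number shared a culture. Replicate 3 of day 3 lay apart in both arms on the first principal component, at -26.5 with ascorbic acid and -25.6 in the control, against -13.0 to -9.4 for the other day 3 arrays. Signal at the 3' minus the 5' end of Actb, a sign of RNA integrity, differed within pairs by -0.02 ± 0.23 (SD, n = 9 pairs). The 3 pairs of day 2 were all lower with ascorbic acid, by -0.31, -0.32 and -0.03. Those of day 3 gave 0.25, 0.04 and -0.01, and those of day 5 gave 0.24, -0.23 and 0.20. The part of RNA integrity in the day effects was not tested. In whole aggregates, fewer cells of a type and less RNA per cell cannot be told apart.

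With ascorbic acid 263 genes rose and 90 fell in the average over days, of 18193 genes tested (limma fit with 9 pair blocks, Benjamini-Hochberg adjusted p under 0.05). These are 1.45% and 0.495% of all genes, and 1.94% together. An unadjusted p under 0.05 was reached by 2378 genes, or 13.07%. The changes were small: the median size was 0.34 on the log2 scale, a 1.27-fold change, 70 genes reached 0.5, and 4 genes reached 1. Without the pair block the same test called 28 genes, 0.154% of all, of which 19 were higher and 9 lower, and all 28 were among the 353 of the paired fit. The count also moved with single pairs. It was 648 without replicate 3 of day 2, 215 without replicate 1 of day 2, 189, 195 and 208 without replicates 1, 2 and 3 of day 3, and 216 without replicate 1 of day 5.

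A called average need not be a shared effect, and the days were therefore compared. Of the 353 genes, 290 had the same sign in all 3 day means, and 135 had it in 9 of 9 pairs, of which 102 were higher and 33 lower. Of all genes 1.41% had 1 sign in 9 of 9 pairs. A called average already favours such genes, so these counts only describe them. An F test of the difference between days called 93 genes (0.511% of all), 48 of them among the 353. Genes called at every single day numbered 6: Pttg1, Lpl, Gask1b, Gstp1 and Acta2 were higher and Mkx was lower. At single days, the same fit called 481 genes at day 2 (2.64%), 36 at day 3 (0.198%) and 174 at day 5 (0.956%), and the day mean of largest size fell on day 2 for 192 of the 353 genes.

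The days share no control arrays, so genes called from 2 days could be read on the third as a description. Of 212 genes called without day 2 (1.17% of all), 154 (72.6%) kept their sign at day 2, against 52.4% of all genes with the same sign in both readings. Of 170 genes called without day 3 (0.934%), 144 (84.7%) kept it at day 3, against 54.8%. Of 317 genes called without day 5 (1.74%), 205 (64.7%) kept it at day 5, against 52.2%. Day 5 thus carried the smallest share of the effect chosen on the other days. Across all genes, which are not independent replicates, the day effects correlated at 0.231 between days 2 and 3, 0.178 between days 3 and 5 and 0.056 between days 2 and 5.

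**Figure D1:**
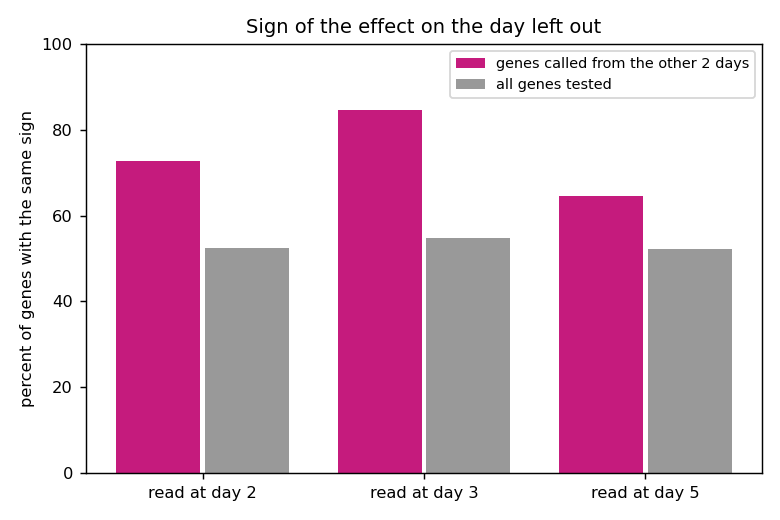
Percent of genes whose ascorbic acid minus control difference had the same sign on the day named on the x axis as in the average of the other 2 days, for genes called from those 2 days (pink) and for all genes (grey). The called genes stand at 72.6%, 84.7% and 64.7%, above 52.4%, 54.8% and 52.2% of all genes.

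Pttg1 had the largest average rise of the called genes. It encodes securin, which holds back separase and so keeps sister chromatids together until anaphase. Its signal was 11.82, 11.84 and 11.64 with ascorbic acid at day 2, against 10.57, 10.74 and 10.31 in controls. Day 3 values were 11.96, 12.15 and 11.77, against 10.83, 10.85 and 10.81, and at day 5 11.83, 12.17 and 11.95, against 10.40, 10.81 and 10.67. Every ascorbic acid array lay above every control array of any day, and the 9 differences ran from 0.96 to 1.43. The average was 1.24 ± 0.05 (SE, n = 9 pairs), a 2.36-fold rise (limma, adjusted p = 4.99e-11), and the day difference had adjusted p = 0.675. Both other probe sets of the gene were higher in 9 of 9 pairs, by 1.56 and 0.67. Among 28 measured cell cycle genes, the cyclin genes Ccnb2 (0.18 ± 0.05) and Ccne1 (0.32 ± 0.06) also rose and 0 fell. With Pttg1 included, 10.7% of the list rose, against 1.45% of all genes. Ccnb2 had its difference at day 2, with day means of 0.47, 0.03 and 0.05, and lost its call in 16 of 20 alternative settings. Ccne1 lost its call in 6 of them, and neither was called without the pair block (limma, adjusted p = 0.784 and 0.131). Pttg1 alone of the list was called without replicate 1 of day 2 or replicate 1 of day 3.

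Plac8, which encodes a small cysteine-rich protein, also stood above its controls on each day. With ascorbic acid its signal was 9.02, 9.03 and 8.77 at day 2, against 7.92, 8.07 and 7.70 in controls. At day 3 the values were 8.09, 9.26 and 9.11, against 7.48, 7.86 and 7.89, and at day 5 7.69, 8.44 and 8.11, against 7.56, 7.62 and 7.22. The groups did not overlap on any day, although 1 pair of day 5 differed by only 0.13. The average rise was 0.91 ± 0.09 (limma, adjusted p = 2.52e-05).

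Lpl, the lipoprotein lipase that frees fatty acids from circulating fat, rose by 0.78 ± 0.08 (limma, adjusted p = 4.59e-05). Its signal with ascorbic acid was 8.68, 8.22 and 8.26 at day 2, against 7.65, 7.77 and 7.24 in controls. Day 3 values were 8.48, 8.49 and 8.63, against 7.39, 7.41 and 8.21, and at day 5 7.96, 8.68 and 8.07, against 7.25, 8.00 and 7.51. The groups overlapped at day 5 alone, where each pair still differed in the same direction. A second, dimmer probe set of Lpl gave 0.29.

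Gstp1 encodes a glutathione S-transferase that conjugates glutathione to reactive compounds. With ascorbic acid its signal was 11.88, 12.15 and 11.76 at day 2, against 11.04, 11.41 and 11.15 in controls. Its day 3 values were 11.27, 11.40 and 11.18, against 10.57, 10.97 and 10.82, and at day 5 11.01, 11.30 and 11.04, against 10.33, 10.78 and 10.82. The groups were apart on all 3 days, and the average rise of 0.57 ± 0.05 (limma, adjusted p = 2.39e-05) is 1.48-fold.

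Gask1b, named as a Golgi-associated kinase, rose by 0.93 ± 0.09 (limma, adjusted p = 3.21e-05, and 0.0684 without the pair block). It had 7.41, 7.60 and 7.39 with ascorbic acid at day 2, against 6.41, 6.73 and 7.38 in controls. At day 3 it had 6.04, 6.70 and 7.0, against 4.98, 5.76 and 6.39, and at day 5 6.47, 7.01 and 5.94, against 5.30, 5.57 and 4.71. Replicates differed more than treatments at day 3, yet the order within each pair was the same. A second probe set, at a mean level of 4.22, gave 0.39.

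Acta2, smooth muscle actin, rose by 0.73 ± 0.08 (limma, adjusted p = 6.55e-05, and 0.0791 without the pair block). With ascorbic acid its signal was 8.10, 7.92 and 8.13 at day 2, against 7.31, 7.63 and 7.24 in controls, and 7.92, 7.81 and 7.64 at day 3, against 7.21, 7.14 and 6.65. At day 5 it was 9.70, 10.32 and 9.13, against 8.59, 9.72 and 8.62. The day means of the difference were 0.66, 0.79 and 0.74, nearly equal while the level itself was higher at day 5. Its other probe sets lay at mean levels of 4.60 and 4.29 and gave 0.05 and -0.04.

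**Figure D2:**
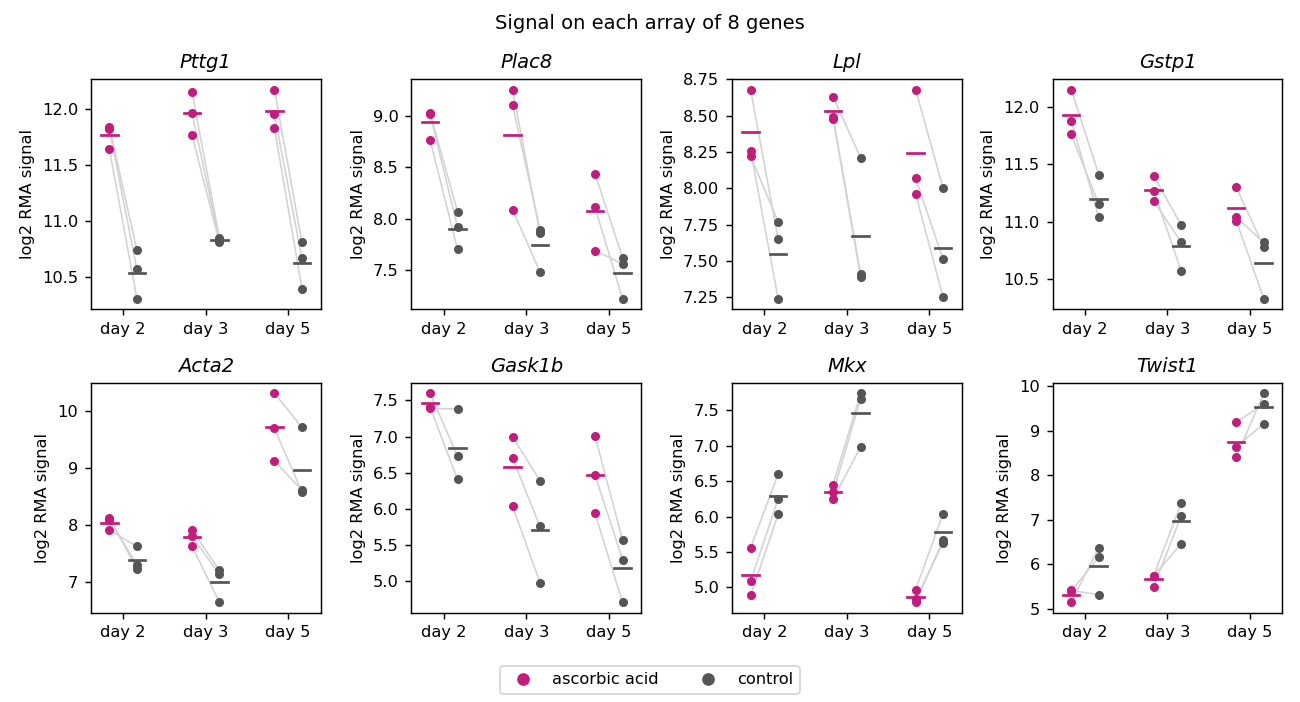
Log2 signal on each array of 8 genes at days 2, 3 and 5, ascorbic acid in pink and control in grey. Grey lines join arrays of the same day and replicate number and short bars are group means of 3 arrays. Pttg1, Plac8 and Gstp1 lie above and Mkx below their controls with no overlap on any day.

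The rule for named genes took 15 higher genes ranked by their smallest day mean, all with the same sign in 9 of 9 pairs. Beside the 6 above, they were Rasgrp2, Mbnl1, Eid1, Smagp, Zfp991, Frrs1, Igfbp4, Wfdc2 and Phlda1, with averages from 0.49 to 0.92. Mbnl1 encodes a splicing regulator, Rasgrp2 an activator of Rap GTPases, and Eid1 an inhibitor of the coactivator EP300. Frrs1 encodes a ferric reductase, and it rose by 0.64 ± 0.06 (limma, adjusted p = 2.52e-05). Phlda1 was the only one of these 9 whose groups did not overlap on any day, with an average of 0.49 ± 0.06. When the pair block was dropped, 8 of the 15 remained called, namely Pttg1, Plac8, Lpl, Gstp1, Zfp991, Igfbp4, Wfdc2 and Phlda1. All 15 remained called when any single pair, including replicate 3 of day 3, or any single day was left out.

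Probe sets of a gene did not always give the same value. Mbnl1 averaged 0.92 ± 0.09 on its brightest probe set and 0.00 and 0.06 on the others. The other probe set of Frrs1, at a mean level of 6.55, averaged -0.01, higher in 4 pairs and lower in 5. Igfbp4, which binds insulin-like growth factors, averaged 0.52 ± 0.07 on its brightest of 6 probe sets, and the others ran from -0.06 to 0.62. For Eid1 all 3 probe sets were higher in 9 of 9 pairs, by 0.54, 0.64 and 0.61. Over the 30 named shared genes, 35 of 42 further probe sets had the same sign, and 26 of 30 above a mean level of 5.

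**Figure D3:**
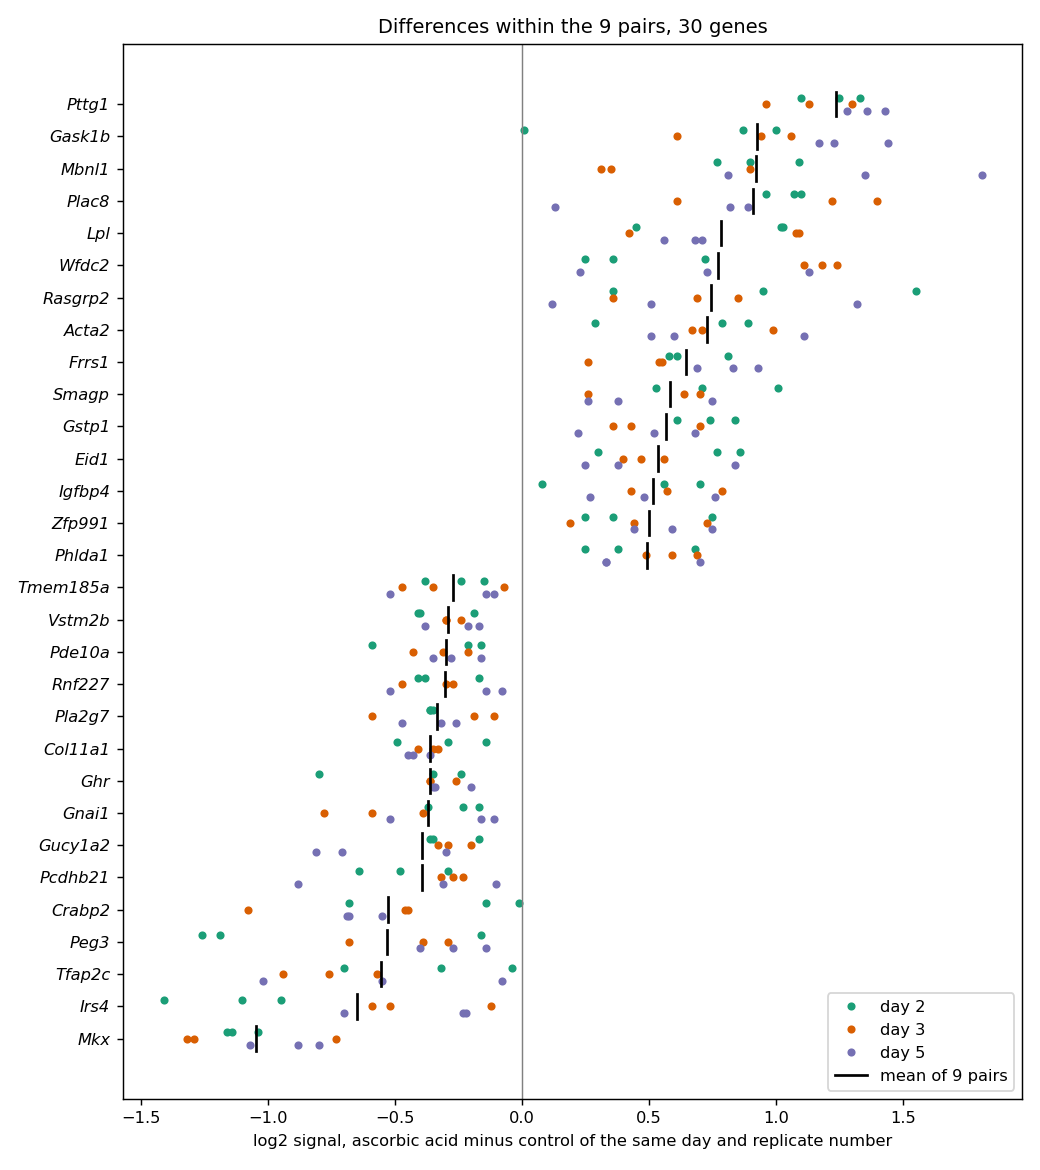
Log2 signal difference, ascorbic acid minus control of the same day and replicate number, in each of 9 pairs for the 15 higher and 15 lower genes that the rule named. Each dot is 1 pair, coloured by day, and the black bar is the mean of 9 pairs. Pttg1 (0.96 to 1.43) and Mkx (-1.32 to -0.73) lie farthest from 0 in their nearest pair.

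Mkx had the largest average fall of the 15 lower genes that the rule named. It encodes Mohawk, a homeobox transcription factor known from tendon development. Its signal with ascorbic acid was 5.56, 4.89 and 5.09 at day 2, against 6.60, 6.03 and 6.25 in controls. Its day 3 values were 6.34, 6.45 and 6.25, against 7.66, 7.74 and 6.98, and at day 5 4.97, 4.79 and 4.83, against 6.04, 5.67 and 5.63. The groups did not overlap on any day, and the level was highest at day 3 in both arms. The average was -1.05 ± 0.07 (limma, adjusted p = 6.92e-07), a 2.07-fold fall, and the day difference had adjusted p = 0.864.

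Twist1, a transcription factor of mesoderm and of epithelial to mesenchymal transition, fell by 0.91 on the log2 scale (SE 0.13, limma, adjusted p = 0.00101). At day 2 it had 5.39, 5.41 and 5.14 with ascorbic acid, against 6.16, 5.31 and 6.37 in controls. At day 3 it had 5.74, 5.49 and 5.74, against 7.37, 7.09 and 6.46, and at day 5 9.19, 8.40 and 8.64, against 9.59, 9.84 and 9.15. It was lower in 8 of 9 pairs, with the exception at day 2, and the level was higher at day 5 in both arms. The fall held without the pair block (adjusted p = 0.0172).

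Ifitm1, an interferon-inducible membrane protein also expressed in early mesoderm, fell by 0.57 on the log2 scale (SE 0.07, limma, adjusted p = 0.000267, and 0.0358 without the pair block). Its signal was 10.64, 10.28 and 10.56 with ascorbic acid at day 2, against 11.45, 11.11 and 10.99 in controls. Day 3 values were 10.62, 10.63 and 10.18, against 11.26, 11.18 and 10.58, and at day 5 11.18, 11.01 and 11.44, against 11.84, 11.83 and 11.44. It was lower in 8 pairs and equal in the ninth. Among 13 measured interferon response genes it was the only one to pass the test (7.69%, against 0.495% of all genes called lower).

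The other lower genes that the rule named were Irs4, Tfap2c, Col11a1, Ghr, Pla2g7, Crabp2, Gucy1a2, Pcdhb21, Peg3, Pde10a, Tmem185a, Gnai1, Vstm2b and Rnf227. Their averages ran from -0.65 to -0.27, all lower in 9 of 9 pairs. Beside Mkx the largest averages were those of Irs4, an insulin receptor substrate (-0.65 ± 0.08), and Tfap2c, a transcription factor of trophoblast and primordial germ cells (-0.55 ± 0.09). Irs4 had day means of -1.15, -0.41 and -0.38, largest at day 2, and its dimmer probe set averaged -0.08, higher in 5 pairs and lower in 4. Peg3, an imprinted gene expressed from the paternal allele, had 2 further bright probe sets at -0.54 and -0.45 beside its -0.53 ± 0.09. Crabp2 encodes a carrier of retinoic acid and fell by 0.53 on the log2 scale (SE 0.08). The receptor gene of growth hormone, Ghr, fell by 0.36. With no pair block only Mkx among the 15 lower genes remained called. Without replicate 3 of day 3, 12 of the 15 remained called, and Pde10a, Vstm2b and Rnf227 did not.

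Called genes under HIF control were mostly lower at days 2 and 3 and not at day 5, so their averages are not a shared effect. Of 23 measured HIF targets outside glycolysis, 3 fell and 1 rose in the average, with a median of -0.06, against 0.003 over all genes. These are 13.0% and 4.35% of the list, against 0.495% and 1.45% of all genes. Of 20 genes of glycolysis and glucose transport, 7 fell (35.0%) and 0 rose, with a median of -0.15. The falls in glycolysis were those of Pfkl, Pgk1, Aldoa, Tpi1, Pkm and Ldha, which encode glycolytic enzymes, and Slc2a3, a glucose transporter. The fall of Pfkl was -0.48 on its brightest probe set and only -0.08 and -0.12 on the others. The day medians of the glycolysis list were -0.28, -0.10 and 0.12. At day 2, 8 of its members fell and at day 3, 5 fell, while at day 5 the count was 0. Of all genes 0.539%, 0.104% and 0.176% fell on these days. Called members of both lists that fell numbered 10, and 9 of these, all but Ldha, had a called day difference. Dropping the pair block left only Pgk1 of the 10 called. Leaving out each pair in turn gave 4 to 9 lower glycolysis genes, with 4 without replicate 1 of day 3, and 2 to 5 other lower HIF targets, with 5 without replicate 2 of day 2.

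Pgk1, phosphoglycerate kinase, shows the pattern. Its signal was 12.32, 12.57 and 12.36 with ascorbic acid at day 2, against 13.07, 13.09 and 12.82 in controls, and 12.44, 12.54 and 12.31 at day 3, against 13.12, 13.10 and 12.95. At day 5 it was 13.26, 12.90 and 12.98, against 12.95, 13.06 and 12.97. The groups were apart on the first pair of days and overlapped on the last. Its average was -0.38 ± 0.05 (limma, adjusted p = 0.000182), and its day difference had adjusted p = 0.00887. Bnip3, a mitophagy receptor, had day means of -0.79, -0.72 and 0.38, and Ddit4, an inhibitor of mTOR signalling, -0.65, -0.77 and 0.17. Egln3, itself a HIF prolyl hydroxylase and a HIF target, had -1.05, -0.29 and 0.51, and its average of -0.28 did not pass the test (limma, adjusted p = 0.125). Slc2a1, a glucose transporter, had -0.67, -0.10 and 0.00 and an average with adjusted p = 0.0932 (limma).

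Among the called HIF targets outside glycolysis, Angptl4 alone had the same sign on all days. Of those not called, Stc2 (-0.21, -0.15 and -0.22), P4ha2 (-0.47, -0.22 and -0.33) and Ndrg1 (-0.42, -0.06 and -0.08) were lower on each day. Pim1 (0.11, 0.24 and 0.61) was higher on each day and not called. Angptl4, a secreted inhibitor of lipoprotein lipase, was higher by 0.36, 0.35 and 0.33 at days 2, 3 and 5. Its average of 0.35 ± 0.08 passed the test (limma, adjusted p = 0.0245), but not in 12 of 20 alternative settings, among them without replicate 3 of day 3 (adjusted p = 0.0651) and without the pair block (adjusted p = 0.407). Among 6 measured genes that encode HIF subunits and their regulators, limma called 0, with 2 at an unadjusted p under 0.05 and 0 called without the pair block. Epas1, which encodes HIF-2 alpha and was chosen after its values were seen, had day means of 0.90, 0.73 and -0.50 with a called day difference (adjusted p = 0.0493).

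Promoters of HIF targets carry a short element to which HIF binds, and those of Pgk1 and Bnip3 are shown to place the day 2 and 3 falls beside the sequence. They are RefSeq windows of GRCm38.p6, from 250 bases before to 50 after the annotated start, written 5′ to 3′ on the gene's strand. Pgk1 lies on the plus strand at chrX:106186850-106187149 and Bnip3 on the minus strand at chr7:138909457-138909756. Capitals mark ACGTG or GCGTG, searched on both strands, so that CACGT and CACGC are the same element read on the other strand.
Pgk1: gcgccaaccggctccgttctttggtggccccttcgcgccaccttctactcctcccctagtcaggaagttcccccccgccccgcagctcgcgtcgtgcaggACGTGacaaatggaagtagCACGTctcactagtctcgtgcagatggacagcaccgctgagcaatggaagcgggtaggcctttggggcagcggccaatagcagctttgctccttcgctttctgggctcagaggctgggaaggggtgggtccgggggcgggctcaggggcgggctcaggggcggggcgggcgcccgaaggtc
Bnip3: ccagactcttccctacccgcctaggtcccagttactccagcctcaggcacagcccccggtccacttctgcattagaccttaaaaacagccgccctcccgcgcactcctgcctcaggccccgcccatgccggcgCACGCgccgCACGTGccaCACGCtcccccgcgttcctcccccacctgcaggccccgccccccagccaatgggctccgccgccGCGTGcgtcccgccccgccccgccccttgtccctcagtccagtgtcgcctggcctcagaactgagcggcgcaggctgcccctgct
Pgk1 had 2 matches, which began at positions -150 and -131 from the start. Bnip3 had 5, at positions -117, -108, -107, -99 and -35, of which those at -108 and -107 overlap as 1 palindrome. Of the 10 HIF and glycolysis genes that fell, 9 had promoters in the table, 13 in all, and 10 of the 13 (76.9%) held at least 1 match. The element is common, since 14380 of 32851 promoters of that length (43.8%) hold it, and a match is a description and not a binding site.

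**Figure D4:**
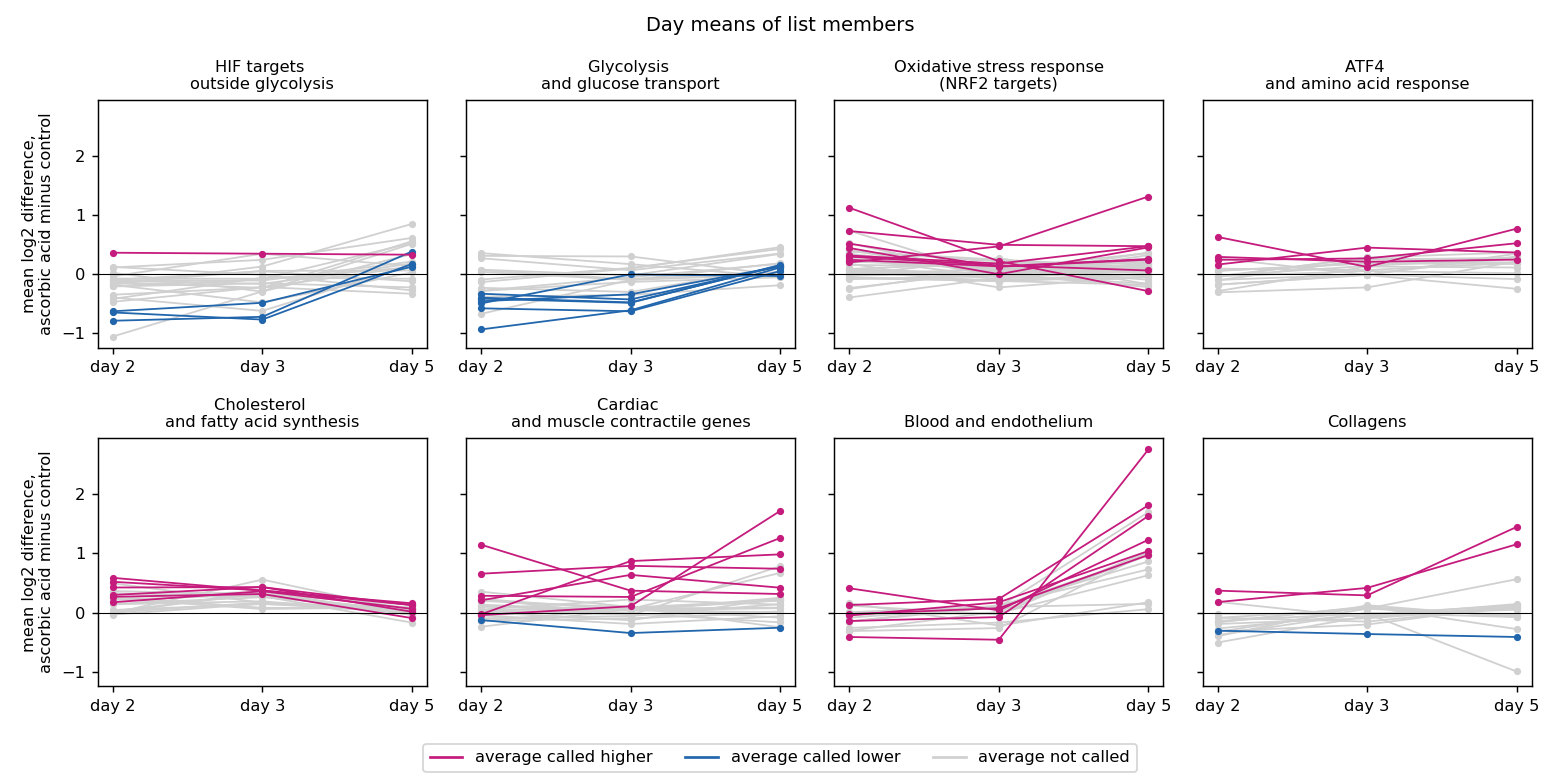
Mean log2 difference, ascorbic acid minus control, at days 2, 3 and 5 for every measured member of 8 gene lists. Each line is 1 gene, pink where its average was called higher, blue where it was called lower and grey where it was not called. Called HIF and glycolysis genes that fell lie below 0 at day 2 and most lie above 0 at day 5, while blood genes rise at day 5.

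Genes of the oxidative stress response that passed the test were all higher. The list holds targets of NRF2, the transcription factor that answers oxidants, and 9 antioxidant enzymes and regulators, among them Keap1 and the NRF2 gene Nfe2l2. Of its 39 measured members, 8 rose (20.5%, against 1.45% of all genes) and 0 fell. Of these 39, 30 had a positive average and 9 a negative one, against 9480 and 8713 of 18193 genes. The list median was 0.12, and the day medians were 0.20, 0.06 and 0.10. The 8 were Gstp1, Gstm5 and Gclm of glutathione use and synthesis, Gsr and Txnrd1, which reduce glutathione and thioredoxin, the iron store Fth1, the biliverdin reductase Blvrb, and the quinone reductase Nqo1. All had the same sign at days 2 and 5 except Nqo1, whose day means were 1.12, 0.22 and -0.29 with a called day difference (adjusted p = 0.00234). Dropping the pair block left 1 of the 8, Gstp1, called. The count was 4 without replicate 3 of day 3, 5 without replicate 1 of day 2 and 5 without replicate 1 of day 3, and it was 14 without replicate 3 of day 2. It was 3 without day 2, 6 without day 3 and 4 without day 5. Gstm5 had day means of 0.20, 0.47 and 1.31. Gstm5, Gclm and Txnrd1 were not called without day 5 (limma, adjusted p = 0.19, 0.0759 and 0.0866).

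Gclm encodes the regulatory subunit of the enzyme that limits glutathione synthesis. Its signal with ascorbic acid was 11.23, 11.36 and 11.21 at day 2, against 11.00, 10.78 and 11.07 in controls, and 10.10, 10.11 and 11.13 at day 3, against 9.78, 9.99 and 11.03. At day 5 it was 8.81, 9.26 and 9.35, against 8.53, 8.65 and 8.82. It was higher in 9 of 9 pairs while its mean level was lowest at day 5 in both arms. The average was 0.32 ± 0.06 (limma, adjusted p = 0.00486, and 0.749 without the pair block). Replicate 3 of day 3 stood more than 1 log2 unit above the other day 3 arrays in both arms. Gclc, which encodes the catalytic subunit, had 0.18 ± 0.06 and did not pass (limma, adjusted p = 0.202).

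Targets of NRF2 can carry an antioxidant element, and the promoter of Gclm is shown as 1 that holds it, from a gene higher in every pair. The promoters of Gstp1 and Nqo1 had 0 matches to the exact string given below. Other forms of the element and sequence outside the window were not searched. The Gclm window lies on the plus strand at chr3:122245307-122245606 in GRCm38.p6, in the same RefSeq window. Capitals mark TGACNNNGC, where N is any base, searched on both strands, and the match here is on the other strand and begins at position -134.
Gclm: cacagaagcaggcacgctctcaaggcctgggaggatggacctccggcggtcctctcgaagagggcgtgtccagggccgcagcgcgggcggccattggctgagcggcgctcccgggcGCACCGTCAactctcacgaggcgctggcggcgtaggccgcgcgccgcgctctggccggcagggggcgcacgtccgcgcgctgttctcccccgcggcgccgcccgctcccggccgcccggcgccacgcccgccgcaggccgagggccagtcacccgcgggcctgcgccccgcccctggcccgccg
Of the 8 NRF2 targets that rose, 7 had promoters in the table, 11 in all, and 3 of the 11 (27.3%) held the element, as did 4071 of 32851 promoters (12.4%) in the whole table.

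Genes of cholesterol and fatty acid synthesis were higher in the average without exception in sign. All 21 measured members had a positive average, against 9480 of 18193 genes, with a list median of 0.16. The test was passed by 6 (28.6%, against 1.45% of all genes called higher). The 6 were Insig1, a sterol-regulated brake on the pathway, the enzymes Hmgcs1, Sqle, Msmo1 and Nsdhl of cholesterol synthesis, and the desaturase Scd1. Insig1 had the largest rise of these, 0.37 ± 0.06 (limma, adjusted p = 0.00145), and was higher in 9 of 9 pairs. Day medians were 0.23, 0.31 and 0.06, so the difference was smallest at day 5. When pairs were ignored 0 remained called. Leaving out each pair in turn gave 1 to 9, with 1 without replicate 1 of day 3 or replicate 1 of day 5, 2 without replicate 1 of day 2 or replicate 2 or 3 of day 3, and 3 without replicate 2 or 3 of day 5. The count was 4 without replicate 2 of day 2 and 9 without replicate 3 of day 2. It was 0 without day 2, 1 without day 3 and 8 without day 5.

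Genes of the ATF4 and amino acid response gave 4 rises and 0 falls among 18 measured, with a median of 0.14. The rises are 22.2% of the list, against 1.45% of all genes. Cth, which makes cysteine by transsulfuration, rose by 0.51 ± 0.09 (limma, adjusted p = 0.00593). Mthfd2 of mitochondrial folate metabolism was higher in 9 of 9 pairs, with an average of 0.33 ± 0.06. Psph of serine synthesis and the cationic amino acid transporter Slc7a1 averaged 0.25 and 0.34. Day medians of the list were -0.03, 0.14 and 0.23, and 2 rises were called without day 2, 1 without day 3 and 2 without day 5. With pairs ignored 0 of these 4 remained called, and leaving out each pair in turn gave 2 or 3, with 2 for replicate 2 of day 2, replicates 2 and 3 of day 3 and replicates 1 and 2 of day 5. Pmaip1, which encodes the apoptosis protein NOXA, rose by 0.60 ± 0.10. It was the only 1 of 16 p53 targets to pass (6.25%, against 1.45% of all genes called higher).

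Heat shock and immediate early genes gave few calls. Hspa1a and Hspa1b, inducible HSP70 genes of nearly identical sequence whose probes may cross-hybridise, fell by 0.38 and 0.62 on the log2 scale among 11 heat shock genes. The fall of Hspa1b lay at day 2, with day means of -1.41, -0.50 and 0.07 and a called day difference (adjusted p = 0.00255). Fos and Egr2, of 16 immediate early genes, fell by 0.33 and 0.32. Called falls made up 18.2% of the heat shock list and 12.5% of the immediate early list, against 0.495% of all genes. Fos was lower in 8 pairs and equal in the ninth. These calls were weak. Egr2 lost its call in 18 of 19 alternative settings, Hspa1a in 10 of 19, Fos in 7 of 20 and Hspa1b in 4 of 20. With pairs ignored 0 members of either list were called. Of the immediate early genes 0 were called without replicate 1 or 3 of day 3 or replicate 1 of day 5, 1 without replicates 1, 2 or 3 of day 2, replicate 2 of day 3 or replicate 2 of day 5, and 3 without replicate 3 of day 5. Hspa1b alone of its list was called without replicate 1 of day 2, replicate 2 or 3 of day 3, or replicate 1 or 3 of day 5.

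Several muscle actin and myosin genes were higher, and genes of early heart mesoderm gave 1 fall. Of 25 contractile genes 6 rose and 1 fell (24.0% and 4.0%, against 1.45% and 0.495% of all genes), with a median of 0.09. Beside Acta2, Myl9 (0.61 ± 0.08) and Tagln (0.42 ± 0.09) are genes of smooth muscle, and Myh6 (0.61 ± 0.14), Actc1 (0.60 ± 0.15) and Myl7 (0.59 ± 0.14) of heart muscle. Myl7 had its difference at day 5, with day means of -0.04, 0.11 and 1.72 and a called day difference (adjusted p = 0.0297). Myh6 had -0.03, 0.87 and 0.98, and at day 5 its signal was 6.87, 5.68 and 4.10 with ascorbic acid, against 4.94, 4.69 and 4.07 in controls. Replicate 3 of day 5 was near the low end of the signals in both arms. Myl9 had 1.15 at day 2 and 0.37 and 0.31 afterwards. Tpm2, a tropomyosin, fell by 0.24. There were 4 rises without day 2, 3 without day 3 and 3 without day 5. Dropping the pair block left only Myl9 of the 6 called, and leaving out each pair in turn gave 2 to 7 rises. The count was 2 without replicate 1 of day 2 or replicate 2 of day 3, and 3 without replicate 2 of day 2, replicate 1 of day 3 or replicate 1 or 2 of day 5.

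Nkx2-5, a transcription factor of the early heart, did not pass the test (-0.05 ± 0.07, limma, adjusted p = 0.847). Foxf1, a factor of lateral mesoderm, was the 1 called member of 18 cardiac mesoderm genes (5.56%, against 0.495% of all genes) and fell by 0.39. It lost that call in 15 of 20 alternative settings (adjusted p = 0.759 without the pair block, limma), and its other probe set averaged -0.10, higher in 4 pairs and lower in 5. Over 19 primitive streak and nascent mesoderm genes, 17 had a negative average, against 8713 of 18193 genes, and 2 passed, Eomes and Twist1. These 2 falls are 10.5% of the list, against 0.495% of all genes. Eomes fell by 0.43 on the log2 scale (SE 0.08, limma, adjusted p = 0.0076, and 0.824 without the pair block) and was lower in 9 of 9 pairs. The mean level of the streak list was 6.03 to 6.19 with ascorbic acid and 6.17 to 6.26 in controls at day 2, 6.51 to 7.68 and 6.64 to 7.90 at day 3, and 6.74 to 6.91 and 6.99 to 7.11 at day 5. It was lower in each of the 9 pairs. The part of streak cell number in these values was not tested.

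Trophoblast genes gave 2 falls among 12 (16.7%, against 0.495% of all genes), Eomes and Tfap2c, which the streak and germ cell lists also hold. The mean level of the list was lower in each of 9 pairs, by 0.17, 0.09 and 0.26 at days 2, 3 and 5. The mean levels of the neuroectoderm and definitive endoderm lists were also lower on each day, by 0.14, 0.04 and 0.17 and by 0.09, 0.16 and 0.02. They were not lower in every pair. Marker lists other than these and the streak list were not lower on every day. Of the 12 neuroectoderm genes 6 had a positive and 6 a negative average, and their day medians were -0.12, 0.06 and -0.04. The mean level of that list includes Zic1, so it does not show a fall of the list as a whole. In the neuroectoderm list Zic1 fell (8.33%, against 0.495% of all genes) and 0 of 12 rose. Zic1, a zinc finger factor of the dorsal neural tube, had 4.19, 3.63 and 3.90 with ascorbic acid at day 2, against 4.67, 4.11 and 4.57 in controls. At day 3 it had 3.97, 3.88 and 4.17, against 5.36, 5.09 and 5.31, and at day 5 3.51, 3.34 and 3.99, against 4.69, 5.09 and 6.52. The gene was lower in 9 of 9 pairs (limma, adjusted p = 4.07e-06). Most ascorbic acid values are at or under 4, a level not told apart from background here, so the size of its fall and of its called day difference (adjusted p = 0.0466) is left out.

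Pluripotency genes showed little shared shift. Of 12 general pluripotency genes limma called 0, with 2 at an unadjusted p under 0.05 and 0 called without the pair block. Klf4 of the naive state fell by 0.38, most at day 2 (-0.68). It was the 1 called member of 13 (7.69%, against 0.495% of all genes called lower). Fgf5 of the primed epiblast was called lower (-0.30 ± 0.07), with day means of 0.03, -0.15 and -0.77. In definitive endoderm, 0 of 8 genes were called by limma, with 3 at an unadjusted p under 0.05 and 0 called without the pair block. In extraembryonic endoderm, Sox7 was the 1 called member of 18 (5.56%, against 1.45% of all genes called higher). Fn1, fibronectin, rose by 0.21 among 13 genes of epithelium and mesenchymal transition, where Twist1 fell. Each is 7.69% of that list, against 1.45% of all genes called higher and 0.495% called lower. None of Klf4, Fgf5, Sox7 and Fn1 was called without the pair block (limma, adjusted p = 0.556, 0.774, 0.272 and 0.816) or without replicate 3 of day 3 (0.0589, 0.0845, 0.0986 and 0.159). Fn1 had day means of 0.43, 0.14 and 0.06, largest at day 2. Of 20 imprinted genes, Mest rose by 0.30 ± 0.05 and Peg3 fell (5.0% each, against 1.45% and 0.495% of all genes). Of 5 genes linked to the 2-cell state limma called 0, with 0 at an unadjusted p under 0.05 and 0 called without the pair block.

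Blood and endothelial genes had the highest list median of the average, 0.33, and nearly all of it came from day 5. Of 17 measured, 6 rose (35.3%, against 1.45% of all genes) and 0 fell, and the day medians were -0.05, 0.04 and 0.97. All 6, Tal1, Lmo2, Hbb-bh1, Tek, Sox7 and Sox18, had a called day difference. Tal1, a transcription factor required for blood formation, had 5.58, 5.54 and 5.41 with ascorbic acid at day 2, against 5.72, 5.63 and 5.61 in controls, and 5.51, 5.50 and 5.32 at day 3, against 5.41, 5.49 and 5.66. At day 5 it had 9.67, 9.54 and 9.54, against 8.26, 8.14 and 7.45. The groups thus differed at day 5 by 1.63, after small differences of the other sign. The mean level of the list at day 5 was 7.75 to 8.71 with ascorbic acid and 6.80 to 7.61 in controls. Without the pair block Tal1 alone remained called among the 6 in the average. Without day 5, 0 of the list were called. Leaving out each pair in turn gave 3 to 7, with 3 without replicate 1 of day 2 or replicate 2 of day 3.

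Genes of the enzymes that use ascorbic acid stayed mostly below the threshold. Among 17 JmjC histone demethylases limma called 0, with 3 at an unadjusted p under 0.05 and 0 without the pair block. The same held for 18 genes of collagen hydroxylation, folding and crosslinking, with 0 called, 5 at an unadjusted p under 0.05 and 0 without the pair block. Tet1 had day means of 0.54, 0.01 and -0.15 and an average of 0.13 ± 0.07 (limma, adjusted p = 0.465). Dnmt3a, a DNA methyltransferase that sets new methylation, rose by 0.41 ± 0.06 (limma, adjusted p = 0.000619), and Uhrf1, which guides maintenance methylation, by 0.24 ± 0.04. Each was higher in 8 of 9 pairs, and both rises remained called without replicate 3 of day 3. Both were largest at day 2, with day means of 0.61, 0.46 and 0.18 for Dnmt3a and 0.41, 0.22 and 0.08 for Uhrf1. Only Dnmt3a was called without day 2 or without day 3. Without the pair block neither was called. Among 11 genes of vitamin C transport and recycling only Txnrd1 passed (0.21 ± 0.05), which is 9.09%, against 1.45% of all genes called higher. It was not called without replicate 3 of day 3 (limma, adjusted p = 0.076).

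Of 17 collagen genes 2 rose and 1 fell (11.8% and 5.88%, against 1.45% and 0.495% of all genes), with a median of -0.07. Col1a2, a chain of type I collagen, rose by 0.58 ± 0.08 in 9 of 9 pairs (limma, adjusted p = 0.000815, and 0.259 without the pair block). Its signal with ascorbic acid was 7.39, 7.54 and 7.62 at day 2, against 7.31, 7.51 and 7.20 in controls, and 7.67, 7.27 and 7.59 at day 3, against 7.0, 7.04 and 7.24. At day 5 it was 8.90, 9.99 and 8.35, against 7.80, 8.39 and 7.59. The sign was constant, and the day mean was 0.18 at day 2 and 1.15 at day 5, a difference between days that did not pass the test (adjusted p = 0.0685). Without day 5 its average was 0.30 and was not called (limma, adjusted p = 0.112). Col5a2 rose by 0.70 ± 0.12, mostly at day 5 (1.45), and was not called without that day (limma, adjusted p = 0.264). Col11a1 fell by 0.36 on the log2 scale (SE 0.06) with even day means of -0.31, -0.36 and -0.41. Col1a1, the partner chain of Col1a2, had 0.18 ± 0.09 and did not pass (limma, adjusted p = 0.42).

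Germ cell genes moved both ways. Of 40 measured, 5 rose and 4 fell (12.5% and 10.0%, against 1.45% and 0.495% of all genes). The list median was 0.03, and 4 members had a called day difference. The falls were those of Ddx4, the germ line helicase, Meioc and Syce2 of meiosis, and Tfap2c. Ddx4 had 7.26, 7.20 and 7.47 with ascorbic acid at day 2, against 8.31, 8.00 and 7.80 in controls, and 6.78, 6.96 and 7.41 at day 3, against 7.20, 7.76 and 8.54. At day 5 both arms were under 4, so its size is given without that day, as -0.76 (limma, adjusted p = 0.00242). Meioc was likewise under 4 at day 5 and had -1.27 without it (adjusted p = 3.16e-05). Syce2 was lower in 9 of 9 pairs by 0.25. The rises were those of Dmrt1 (0.51 ± 0.07), Wt1 (0.51 ± 0.11), Stra8 (0.27 ± 0.06), Sohlh2 (0.28 ± 0.07) and Hormad1 (0.33 ± 0.08). Wt1 is a member of the list but is not specific to germ cells. Their largest day mean was at day 2 in each case, 1.14 for Dmrt1 and 1.28 for Hormad1, whose signals after day 2 were all under 4. Dazl, a germ cell RNA-binding protein, had 0.14 ± 0.09 and did not pass (limma, adjusted p = 0.598). With no pair block Dmrt1 was the only one of the 9 still called, and 0 rises were called without day 2. Leaving out each pair in turn gave 1 to 4 rises and 3 to 5 falls. There was 1 rise without replicate 1 of day 3, 2 without replicate 2 of day 2, replicate 2 of day 3 or replicate 1 or 2 of day 5, and 3 without replicate 1 of day 2, replicate 3 of day 3 or replicate 3 of day 5.

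Some genes were called whatever the settings. Of 20 alternative settings, 18 kept the pairs, and 31 genes were called in each of these 18, of which 26 were higher and 5 lower. In all 20 settings 11 genes were called: F2r, Gstp1, Igfbp4, Lpl, Phlda1, Plac8, Pttg1, Wfdc2 and Zfp991 higher, and Ifitm1 and Twist1 lower. Mkx and Zic1 were absent from that count because their mean level is under 6, which 1 setting required. Groups that did not overlap on any of the 3 days, in 1 direction, were found for 13 of 18193 genes (0.0715%), of which 11 passed the test of the average. F2r, a thrombin receptor that was chosen here after its values were seen, rose by 0.43 ± 0.04 (limma, adjusted p = 4.42e-05), with day means of 0.46, 0.31 and 0.51.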

How the data were processed

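The deposited signals are on a log2 scale and come from RMA, per the submitters' processing notes (version: not given in the sources used here). RMA corrects background, normalises by quantiles and summarises probes, so changes common to most genes are not seen. Each array holds 45101 probe sets, and 34945 carry 1 gene symbol. Of a gene's probe sets, that of highest mean signal across the 21 arrays was read (18193 genes). The average over days, the day effects and the day difference were fitted with limma 3.58.1 in R 4.3.3 (9 pair blocks, a treatment coefficient for each day, eBayes with trend). P values were Benjamini-Hochberg adjusted over all genes, with calls at 0.05. The pair correlations above 0.1 in 9 of 9 pairs are the basis of the pairing. P values measure the spread between these pairs, from 1 cell line.

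Members, gene lists and tests were chosen with earlier results of these data known. Named genes were 15 higher and 15 lower called genes with 1 sign in 9 of 9 pairs and a level of at least 5, ranked by the smallest day mean, clone names left out. Added were up to 4 called members of each list, the 5 called genes whose day difference had the smallest p, and 12 fixed genes. Other called list members, F2r and those in the closing section were picked with their values in view. In simulated data in which pairs were set to share 50% of the variance, with 50 genes changed at each size, the fit found 66% of 1.25-fold and 98% of 1.5-fold shared changes, with 6 false calls among 187 over 18193 genes.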

Additional observations from a re-analysis of the deposited data

Results flagged for a closer look

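The day difference was called (limma F test, adjusted p under 0.05) for 30 named genes or list members, which sets their averages apart from a shared effect. Day means at days 2, 3 and 5 follow each gene, ascorbic acid minus control on the log2 scale.

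Most HIF and glycolysis genes among them had negative day means at days 2 and 3 and positive ones at day 5. Pfkl had -0.93, -0.61 and 0.11 (adjusted p = 0.00515), Pgk1 -0.58, -0.63 and 0.05 (0.00887) and Aldoa -0.41, -0.48 and 0.16 (0.00887). A second probe set of Pfkl, at a mean level of 9.23, had smaller day means of -0.20, -0.18 and 0.15. Pkm had -0.46, -0.34 and 0.13 (adjusted p = 0.0297), and Fam162a -0.63, -0.48 and 0.13 (0.0274). Bnip3 had -0.79, -0.72 and 0.38 (adjusted p = 0.0284), Ddit4 -0.65, -0.77 and 0.17 (0.0468), and Egln3 -1.05, -0.29 and 0.51 (0.00411). Tpi1 had -0.40, -0.48 and 0.15 (adjusted p = 0.0345), and Higd1a, a HIF target whose protein lies in mitochondria, -0.14, -0.23 and 0.56 (0.00969). Slc2a3 was lower at day 2 only, with -0.49, 0.00 and -0.03 (adjusted p = 0.0406). Epas1 ran the other way, with 0.90, 0.73 and -0.50 (adjusted p = 0.0493).

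Other genes differed chiefly at day 2, or at days 2 and 3. Meioc had -1.18, -1.37 and 0.00 (adjusted p = 0.00349), with signals under 4 in both arms at day 5. Dmrt1 had 1.14, 0.26 and 0.14 (adjusted p = 0.00969), Nqo1 1.12, 0.22 and -0.29 (0.00234), Hspa1b -1.41, -0.50 and 0.07 (0.00255), and Hormad1 1.28, -0.26 and -0.04 (0.00255), again with signals under 4 after day 2. Sohlh2 had 0.75, 0.24 and -0.16 (adjusted p = 0.0476), and Dppa4 of the pluripotency list 0.49, -0.29 and -0.27 (0.00925).

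Blood, vessel and matrix genes differed at day 5. Hbb-bh1, an embryonic globin, had -0.41, -0.46 and 2.76 (adjusted p = 0.000432), Tal1 -0.14, -0.08 and 1.63 (0.000515), Tek 0.13, 0.23 and 1.81 (0.00302) and Lmo2 0.41, 0.04 and 1.23 (0.00265). Sox18 had -0.05, 0.17 and 1.04 (adjusted p = 0.031), Sox7 -0.03, 0.07 and 0.97 (0.0297) and Hapln1, which links hyaluronan to proteoglycans, 0.05, 0.15 and 1.39 (0.00207). Gata1 had -0.31, 0.02 and 0.97 (adjusted p = 0.00935), Cdh5 -0.09, 0.10 and 0.97 (0.0378), and Myl7 -0.04, 0.11 and 1.72 (0.0297). Zic1 was lower throughout (adjusted p = 0.0466 for the day difference), with most ascorbic acid signals at or under 4, so that its sizes are bounded by background and are left out.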

How the results depend on the processing

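The number of called genes depended on the pairing and on single pairs more than on scaling. Without the replicate block 28 genes were called (19 higher, 9 lower), with 1221 at an unadjusted p under 0.05, and with the replicate number as a block across days 56 (40 and 16). A common treatment coefficient gave 154 (112 and 42). Leaving out day 2 gave 212 (154 and 58), and leaving out day 3 gave 170 (143 and 27). Leaving out each pair in turn gave 189 to 648 called, 141 to 501 higher and 48 to 147 lower, and 37 to 183 genes with a day difference, of which 4 were found without the block. Without the block, 9, 2 and 15 genes were called at days 2, 3 and 5, and 4, 7 and 18 genes chosen without days 2, 3 and 5 kept their sign on that day. Renewed quantile normalization gave 321 (209 and 112), centred arrays 312, a level filter 325, probe set means 268, and no intensity trend 287. The average turned for 4 named genes: Nqo1 to -0.033 and Hormad1 to -0.148 without day 2, and Tal1 to -0.11 and Hbb-bh1 to -0.437 without day 5, the days that held their differences. The cause of the other shifts was not tested. Low signals limit Zic1, Meioc, Ddx4, Hormad1 and Hapln1.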

Other observations

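Other genes called both with and without the pair block fell outside the naming rule and were chosen after their values were seen. Higher were As3mt, an arsenite methyltransferase (1.01 ± 0.14, day means 0.93, 0.74 and 1.35), Helz2, a nuclear receptor coactivator (0.76 ± 0.10), Ptgr1, a prostaglandin reductase (0.42 ± 0.06), Ptpmt1, a mitochondrial phosphatase of cardiolipin synthesis (0.40 ± 0.06), Dna2, a helicase and nuclease of DNA replication (0.37 ± 0.05), and Qprt of NAD synthesis (0.38 ± 0.07). Lower were Rbm46, a germ cell RNA-binding protein (-0.63 ± 0.07, lower in 9 of 9 pairs), Nrk, a kinase (-0.61 ± 0.09), and the homeobox genes Hoxd1 (-0.55 ± 0.08) and Hoxc4 (-0.44 ± 0.08). Hoxc4 had its fall at day 5, with day means of -0.12, -0.40 and -0.79, and Hoxd1 on the first pair of days, with -0.65, -0.86 and -0.14.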
